A study of Mus musculus with 6 samples.

Results

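The genes described here encode integrins, laminins, the nidogens and perlecan, the receptors and linkers of the basement membrane. They were chosen by symbol from the deposited gene table, as every integrin alpha gene, every integrin beta gene with a number for its name, every laminin chain gene, *Nid1*, *Nid2* and *Hspg2*, which gave 40 of 23995 genes. The samples were mouse hearts under pressure overload from a surgical narrowing of the aortic arch (transverse aortic constriction, TAC), and their RNA was sequenced. Of the 6 libraries, 3 came from mice labelled WT and 3 from mice labelled LTBP4-CKO, an inducible knockout of *Ltbp4* specific to cardiomyocytes. Surgery took place when the mice of both groups were 10 to 12 weeks old, and every difference below is between genotypes in loaded hearts. Titles of WT libraries contain flox, but whether these controls had floxed alleles or Cre is not stated. The sources used here do not give the Cre driver, the inducing agent, the strain, the sex or the time after surgery.

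Basement membranes are thin sheets of matrix around cardiomyocytes, Schwann cells, smooth muscle cells and adipocytes and beneath endothelium. Laminins are trimers of an alpha, a beta and a gamma chain that assemble into a network on the cell surface, nidogens bridge this network to type IV collagen, and perlecan, a heparan sulfate proteoglycan, joins both. Integrins are pairs of an alpha and a beta chain that bind matrix outside the cell and, through talin and kindlin, the actin cytoskeleton inside. In heart muscle the integrin of the alpha7 and beta1 chains is a main laminin receptor and lies at the costameres.

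Values are FPKM, fragments per kilobase of transcript scaled to library size, which can be compared between genes because they are per length. The targeted gene *Ltbp4* (chromosome 7, 27305141 to 27337612, mm10) ranged from 248 to 368 FPKM in wild type and from 139 to 199 FPKM in knockout, with no overlap and no pass (adjusted p = 0.999, limma with Benjamini-Hochberg adjustment). A single gene of the whole table passed, *Esr1*, listed at no more than 0.202 FPKM in wild type, against 758 to 1425 FPKM in knockout, and the origin of its reads was not tested. Depth recovered from low values was about 3600000 to 5900000 fragments in the wild-type libraries and 5900000 to 14100000 in the knockout libraries. Wild-type libraries 1 and 3 were alike nearly to sampling noise, as were knockout libraries 2 and 3, so each of these pairs was averaged and counted as 1 sample, which left 2 samples against 2. Atrial markers summed to 37552 and 37640 FPKM in wild-type libraries 1 and 3, to 13933 in knockout library 1, of which *Nppa* was 13882, and to between 279 and 1588 in the other 3 libraries, while ventricular cardiomyocyte markers were highest in knockout library 1 (76574 FPKM against 8387 to 28840 in the others). No label says that the samples are separate animals, so p-values measure only the spread between these samples, which may be technical. In tissue RNA, fewer cells of a type and less RNA per cell cannot be told apart.

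No gene of the family passed the test between genotypes. Of the 40 members, 30 reached the filter of at least 1 FPKM in at least 3 libraries, and 0 of these 30 rose or fell (limma, 2 against 2 samples, Benjamini-Hochberg adjusted p = 0.999 for each). Over all 12485 genes tested, 0.00801% passed as higher in knockout and 0% as lower. With the 6 libraries taken as separate samples 0.016% of genes passed, again with 0 members. At an unadjusted p under 0.05 there were 3 members, *Itga10*, *Itgb4* and *Itgb5*, all with lower estimates in knockout hearts, beside 3% of all genes. Estimates were above 0 for 14 members and below 0 for 16, with a median log2 difference of −0.17, beside 0.04 over all genes, of which 45.8% had an estimate below 0. Below, a value in brackets with its SE is this log2 difference, knockout minus wild type, on the log2(FPKM + 1) scale. In all 3 knockout libraries 8 of the 30 lay below the wild-type range, beside 11.5% of all genes tested, and 1 of the 30 lay above it, beside 10.4%. The plot of FPKM by library and the plot of estimates show these values gene by gene.

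**Figure D1:**
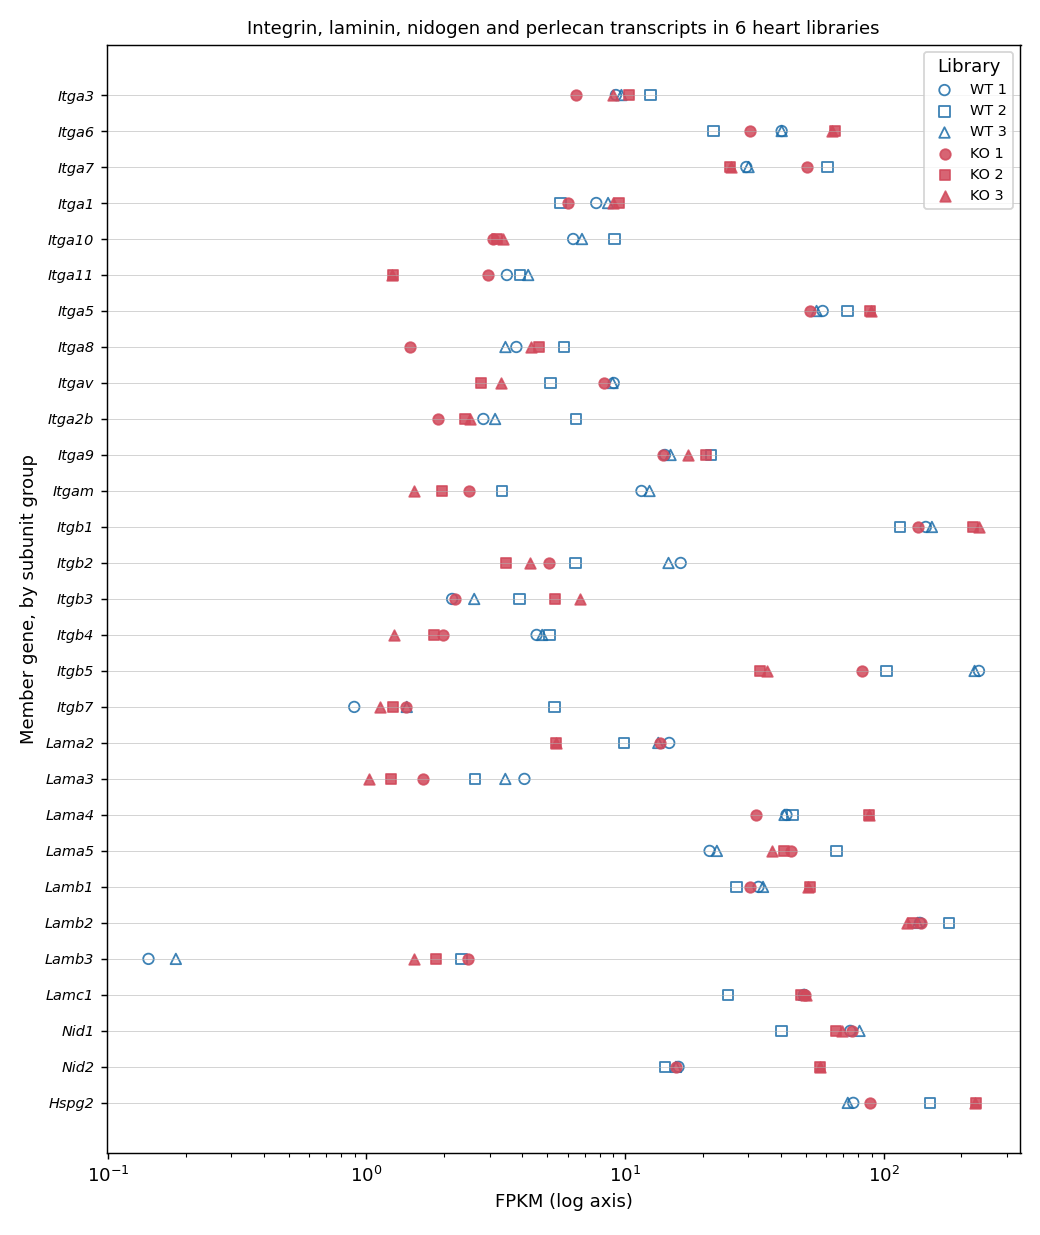
FPKM of 29 tested members in each library on a log axis, with open blue symbols for WT and filled red symbols for LTBP4-CKO libraries 1 to 3, ordered by subunit group. Wild-type libraries 1 and 3 lie close together, as do knockout libraries 2 and 3. The groups part without overlap in 8 of the 29 genes, among them *Itgb5*, *Itgb4* and *Itga10*, beside 21.9% of all genes tested.

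**Figure D2:**
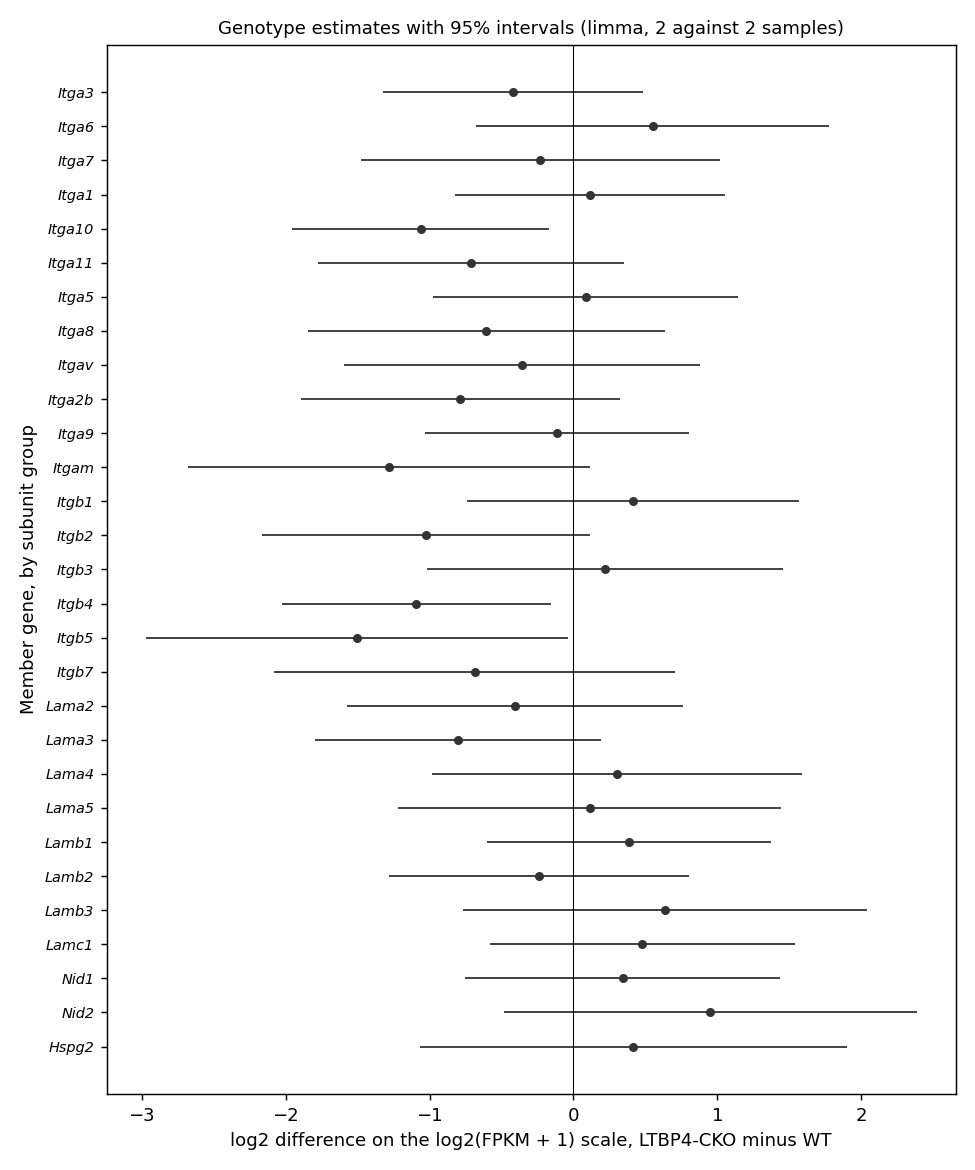
Log2 difference of 29 tested members, LTBP4-CKO minus WT, on the log2(FPKM + 1) scale, with dots for limma estimates from 2 against 2 samples and bars for 95% intervals before adjustment. The intervals of *Itga10*, *Itgb4* and *Itgb5* lie below 0 and all others include 0.

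Among the laminin alpha chains, *Lama4* and *Lama5* made up most of the transcripts in every library, together between 77.0% and 95.1% of the summed alpha chain FPKM. *Lama4*, the alpha chain of endothelial and other vascular basement membranes (chromosome 10, 38965515 to 39110188, plus strand), was at 42.1, 44.4 and 41.4 FPKM in wild type, compared with 32.1, 88.3 and 88.2 FPKM in knockout libraries 1 to 3. The knockout libraries lay on both sides of the wild-type range, which was narrow. Its mean was 43.1 ± 1.87 FPKM (SD, n = 2) in wild type and 60.1 ± 39.7 FPKM (SD, n = 2) in knockout, and its log2 difference of 0.30 (SE 0.54) became −0.41 without knockout libraries 2 and 3. *Lama5*, an alpha chain of mature endothelium and epithelium, was at 21.2, 65.8 and 22.7 FPKM in wild type, against 43.7, 41.1 and 36.9 FPKM in knockout. All 3 knockout libraries thus lay inside the wild-type range, with a log2 difference of 0.11 (SE 0.55) that was 0.88 without wild-type library 2 and −0.66 without wild-type libraries 1 and 3. The mean FPKM of *Lama5* was slightly lower in knockout (41.4 against 43.9), the other way round from its log2 estimate.

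*Lama2*, the alpha chain of striated muscle and Schwann cell laminin, whose loss causes a muscular dystrophy, was at 14.8, 9.93 and 13.5 FPKM in wild type, compared with 13.7, 5.39 and 5.40 FPKM in knockout. Knockout library 1 sat among the wild-type libraries and the other knockout libraries lay below all of them. Its log2 difference was −0.41 (SE 0.49), and 0.19 without knockout libraries 2 and 3. *Lama3*, an epithelial chain, was lower in every knockout library, at 4.08, 2.63 and 3.45 FPKM in wild type against 1.66, 1.24 and 1.03 FPKM in knockout, a log2 difference of −0.80 (SE 0.41, 95% interval −1.79 to 0.19). *Lama1*, the chain of early embryonic basement membranes, was listed at 0 in 4 libraries and at no more than 0.0387 FPKM in the others, about 2 reads.

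The *Lama4*, *Lama5* and *Lama2* shares of laminin alpha chain FPKM overlapped between the genotypes, whereas the small *Lama3* share did not. *Lama3* made up 4.96%, 2.14% and 4.25% in wild type, against 1.82%, 0.914% and 0.781% in knockout. *Lama4* made up 51.2%, 36.2% and 51.1% of alpha chain FPKM in wild type, against 35.2%, 64.9% and 67.0% in knockout, while *Lama5* made up 25.8%, 53.6% and 28.0% in wild type and 48.0%, 30.2% and 28.1% in knockout. Wild-type library 2 and knockout library 1 were thus the libraries in which *Lama5* exceeded *Lama4*. The *Lama2* share was 18.02%, 8.09% and 16.6% in wild type and 15.04%, 3.97% and 4.10% in knockout. Knockout minus wild type, the difference was 6.89 percentage points for *Lama4*, −1.67 for *Lama5* and −3.17 for *Lama2*. Exact two-sided permutation tests of the 4 samples gave p = 1, 1 and 0.667, where the smallest p that 2 against 2 allows is 0.333, and Benjamini-Hochberg values over the 7 shares and sums tested were 1. Leaving out wild-type library 2 moved the *Lama5* difference to 11.7 points and that of *Lama4* to −0.60. Without wild-type libraries 1 and 3 the differences were −15.02 points for *Lama5*, 14.4 for *Lama4* and 1.45 for *Lama2*, and without wild-type library 2 that of *Lama2* was −7.78. In the order *Lama5*, *Lama4* and *Lama2*, they were 7.73, −8.50 and 2.34 points without knockout libraries 2 and 3 and −11.1, 22.3 and −8.67 points without knockout library 1.

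**Figure D3:**
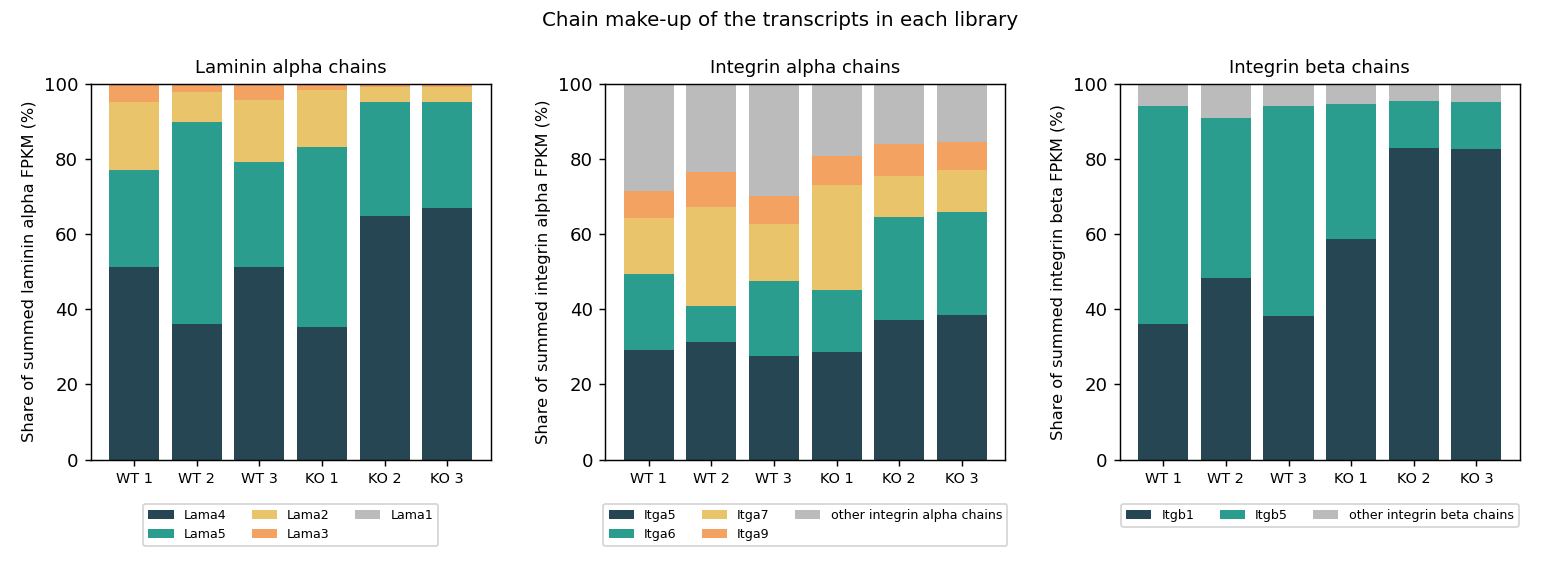
Share of the summed FPKM of laminin alpha, integrin alpha and integrin beta chains taken by each chain in each library, as stacked bars in percent from 0 to 100, with WT 1 to 3 and KO 1 to 3 for the wild-type and knockout libraries. In the panel of integrin beta chains *Itgb1* takes 36.1% to 48.2% in wild type and 58.8% to 83.0% in knockout, and in the laminin panel wild-type library 2 and knockout library 1 hold more *Lama5* than the others.

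Of the laminin beta chains, *Lamb2*, found at mature muscle and synaptic basement membranes, was by far the most abundant, at 138, 179 and 135 FPKM in wild type, compared with 139, 130 and 123 FPKM in knockout. The groups overlapped, with a log2 difference of −0.24 (SE 0.43) that was −0.044 without wild-type library 2 and −0.43 without wild-type libraries 1 and 3. *Lamb1*, the more widespread beta chain, was at 32.8, 27.0 and 34.2 FPKM in wild type, against 30.4, 52.2 and 50.8 FPKM in knockout, where knockout libraries 2 and 3 lay above all others (0.38, SE 0.41). Without these libraries the *Lamb1* estimate was 0.014, without knockout library 1 it was 0.76, and without wild-type library 2 it was 0.23. The *Lamb2* share of beta chain FPKM was 80.7%, 85.9% and 79.8% in wild type, against 80.9%, 70.6% and 70.1% in knockout, a difference of −7.45 points (exact two-sided permutation test of 4 samples, p = 0.667). This difference was −2.19 points without knockout libraries 2 and 3, −4.61 without wild-type library 2 and −12.7 without knockout library 1. *Lamb3*, a chain of epithelial anchoring laminin, was at 0.144 and 0.183 FPKM in wild-type libraries 1 and 3, from about 4 and 5 reads, and at 2.33 in wild-type library 2, inside the range of 1.52 to 2.48 FPKM in knockout. Its log2 difference was 0.63 (SE 0.59), 1.39 without wild-type library 2 and −0.12 without wild-type libraries 1 and 3.

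*Lamc1*, the gamma chain of most laminins (chromosome 1, 153218922 to 153332786, minus strand), was at 49.3, 25.0 and 49.4 FPKM in wild type, compared with 49.7, 48.0 and 50.2 FPKM in knockout. Only wild-type library 2 stood away from the rest, and the log2 difference of 0.48 (SE 0.44) was 0.0036 without it and 0.96 without wild-type libraries 1 and 3. *Lamc3*, a gamma chain described in retina and nerve, was below the filter, and its listed values were 3.26, 0.531 and 3.33 FPKM in wild type, against 0.0380, 0.120 and 0.345 FPKM in knockout, with about 100.2, 10.8 and 109 reads in wild type against 3.0, 3.9 and 12.9 in knockout. Wild-type libraries 1 and 3, which carried the atrial markers, held the high values. The sum of Schwann cell and nerve markers was also highest in these libraries (320 to 322 FPKM, against 127 to 143 in the other 4). Most of each sum was *Pmp22*, at 270, 96.4 and 263 FPKM in wild type, against 129, 98.0 and 96.5 FPKM in knockout. *Mbp* and *Sox10* were also highest in wild-type libraries 1 and 3, but *Cnp* was at 16.3, 13.2 and 18.6 FPKM in wild type, against 7.33, 17.1 and 16.4 FPKM in knockout. The part of these markers in the *Lamc3* values was not tested.

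All 3 linker genes had estimates above 0, and 0 passed. *Nid2*, one of the nidogens (chromosome 14, 19751257 to 19823823, plus strand), was at 16.1, 14.3 and 15.8 FPKM in wild type, compared with 15.8, 56.6 and 56.9 FPKM in knockout libraries 1 to 3. Knockout library 1 was at the wild-type level and the other knockout libraries were 3.60-fold above it. The log2 difference of 0.95 (SE 0.60, 95% interval −0.48 to 2.39) was therefore 1.85 without knockout library 1 and 0.06 without knockout libraries 2 and 3. *Nid2* overlaps *Rtraf* on the opposite strand. *Nid1*, the more abundant nidogen, showed no such split, at 74.4, 40.4 and 80.7 FPKM in wild type, against 75.7, 65.4 and 68.9 FPKM in knockout (0.34, SE 0.46). Its estimate was −0.12 without wild-type library 2, the lowest library, and 0.80 without wild-type libraries 1 and 3. *Hspg2*, which encodes perlecan, was at 76.4, 151 and 72.7 FPKM in wild type, compared with 88.9, 227 and 226 FPKM in knockout. Within each genotype 1 sample was more than 2-fold above the other, by 2.03-fold in wild type and 2.55-fold in knockout, which exceeds the 1.40-fold difference of the genotype means (log2 difference 0.42, SE 0.62, and −0.25 without knockout libraries 2 and 3).

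Among the integrin beta chains, *Itgb1* and *Itgb5* made up 90.9% to 95.4% of the FPKM in every library. *Itgb5* exceeded *Itgb1* in wild-type libraries 1 and 3, and *Itgb1* exceeded *Itgb5* in wild-type library 2 and in every knockout library. *Itgb5* encodes the beta5 chain, which pairs with alphaV and binds vitronectin and latent TGF-beta, and *Itgb1* the beta1 chain, the partner of most matrix-binding alpha chains. RefSeq promoter windows (GRCm38.p6) were found for 25 of the 40 members, and the 250 bases before the start of this pair are shown because these genes give most integrin beta transcripts in every library. Capitals mark the GC box letters GGGCGG on either strand.
*Itgb1* (chr8:128685404-128685653, plus strand): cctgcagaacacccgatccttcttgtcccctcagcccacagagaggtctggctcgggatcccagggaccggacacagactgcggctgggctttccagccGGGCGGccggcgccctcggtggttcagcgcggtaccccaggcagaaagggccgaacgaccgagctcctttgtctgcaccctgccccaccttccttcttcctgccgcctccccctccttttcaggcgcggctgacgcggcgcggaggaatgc
*Itgb5* (chr16:33829415-33829664, plus strand): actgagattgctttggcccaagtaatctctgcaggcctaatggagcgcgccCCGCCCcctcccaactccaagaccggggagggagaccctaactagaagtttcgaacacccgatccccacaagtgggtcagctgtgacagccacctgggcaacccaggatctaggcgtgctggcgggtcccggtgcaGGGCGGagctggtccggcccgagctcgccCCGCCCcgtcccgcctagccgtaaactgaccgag
These letters occurred once in the *Itgb1* window and 3 times in the *Itgb5* window. They were present in 10 of the 25 member windows and in 32.7% of all 32851 windows of this length. The TATA box letters TATAAA, also searched on both strands, were in 0 of the 25 member windows and in 12.4% of all windows, and the 2 sets of letters cannot overlap.

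*Itgb5* was at 234, 103 and 225 FPKM in wild type, against 82.8, 33.2 and 35.4 FPKM in knockout. Every knockout library lay below every wild-type library, and within each genotype the samples also differed more than 2-fold. The mean was 166 ± 89.7 FPKM (SD, n = 2) in wild type and 58.5 ± 34.3 FPKM (SD, n = 2) in knockout, a log2 difference of −1.51 (SE 0.61, 95% interval −2.97 to −0.04) that did not pass the adjusted threshold (limma, Benjamini-Hochberg adjusted p = 0.999). The estimate was −0.93 without wild-type libraries 1 and 3, −0.88 without knockout libraries 2 and 3, −2.08 without wild-type library 2 and −2.13 without knockout library 1. Fibroblast markers were ordered in nearly the same way, with sums of 6850, 2998 and 6766 FPKM in wild type, compared with 4081, 1305 and 1332 FPKM in knockout, and their part in the *Itgb5* values was not tested.

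*Itgb1* was at 146, 116 and 154 FPKM in wild type, against 135, 222 and 234 FPKM in knockout. Knockout library 1 lay inside the wild-type range and knockout libraries 2 and 3 above it, with a log2 difference of 0.41 (SE 0.48) that was 0.039 without them, 0.23 without wild-type library 2 and 0.79 without knockout library 1. As a share of integrin beta FPKM, *Itgb1* was at 36.1%, 48.2% and 38.2% in wild type and at 58.8%, 83.0% and 82.5% in knockout. The groups did not overlap. The mean was 42.7% ± 7.83 (SD, n = 2) in wild type and 70.8% ± 16.9 (SD, n = 2) in knockout, a difference of 28.1 points. An exact two-sided permutation test gave p = 0.333 for the 4 samples and p = 0.1 for the 6 libraries, in each case the smallest it allows, and Benjamini-Hochberg values over the 7 tests were 1 and 0.35. The difference ranged from 16.1 points, without knockout libraries 2 and 3, to 40.1, without knockout library 1. The counterpart was *Itgb5*, at 57.9%, 42.7% and 55.9% in wild type and at 35.9%, 12.4% and 12.5% in knockout.

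The other beta chains were far less abundant. *Itgb4*, the partner of alpha6 in hemidesmosomes and in Schwann cells, was at 4.55, 5.10 and 4.78 FPKM in wild type, compared with 1.99, 1.83 and 1.28 FPKM in knockout. The groups did not overlap and the samples of each genotype lay close together, at 4.88 ± 0.308 FPKM (SD, n = 2) against 1.77 ± 0.306 FPKM (SD, n = 2). The log2 difference was −1.09 (SE 0.39, 95% interval −2.03 to −0.16; limma, Benjamini-Hochberg adjusted p = 0.999), and it stayed between −1.20 and −0.98 whichever library or sample was left out. *Itgb4* overlaps an annotated gene on the opposite strand, *B230344G16Rik*, and the library kit is not stated to keep strand. *Itgb2*, the beta chain of leukocytes, was at 16.4, 6.42 and 14.7 FPKM in wild type, against 5.08, 3.46 and 4.28 FPKM in knockout, without overlap (−1.03, SE 0.48), with an estimate of −1.61 without wild-type library 2 and −0.45 without wild-type libraries 1 and 3. *Itgb3*, the beta chain of platelets and of the vitronectin receptor, was at 2.15, 3.92 and 2.61 FPKM in wild type, compared with 2.20, 5.34 and 6.73 FPKM in knockout, with overlap (0.22, SE 0.51). Its estimate was −0.35 without knockout libraries 2 and 3. *Itgb7*, the beta chain of gut-homing lymphocytes, stood out in wild-type library 2 alone, at 5.34 FPKM, from about 47 reads, against 0.897 to 1.43 FPKM elsewhere. Its log2 difference was −0.69 (SE 0.58), and 0.09 without that library.

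Of the laminin-binding alpha chains, *Itga6*, *Itga7* and *Itga3*, the groups overlapped in all 3. *Itga7*, the striated muscle chain (chromosome 10, 128933813 to 128960988, plus strand), was at 29.5, 60.7 and 30.1 FPKM in wild type, against 50.8, 25.5 and 25.7 FPKM in knockout. The high libraries, wild-type 2 and knockout 1, were also the libraries with the most ventricular cardiomyocyte marker FPKM in their genotype (28840 against 8387 and 8392 in wild type, and 76574 against 25070 and 24744 in knockout). Between genotypes this order was not shared. Knockout libraries 2 and 3 had higher marker sums than wild-type libraries 1 and 3 but lower *Itga7*. The part of these markers in the *Itga7* values was not tested. The log2 difference was −0.23 (SE 0.52), 0.27 without wild-type library 2 and 0.25 without knockout libraries 2 and 3. *Itga7* also overlaps *Mettl7b* on the opposite strand. *Itga6*, the laminin receptor chain of endothelium and epithelium, had the mirror order, at 40.4, 22.0 and 40.4 FPKM in wild type, compared with 30.3, 65.0 and 63.4 FPKM in knockout. Its log2 difference was 0.55 (SE 0.51), with 1.08 without knockout library 1, 0.021 without knockout libraries 2 and 3, 0.13 without wild-type library 2 and 0.97 without wild-type libraries 1 and 3. *Itga3* was at 9.23, 12.6 and 9.69 FPKM in wild type, against 6.46, 10.3 and 8.97 FPKM in knockout (−0.42, SE 0.38), and its estimate was −0.16 without knockout library 1, −0.23 without wild-type library 2 and −0.68 without knockout libraries 2 and 3.

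As a share of integrin alpha FPKM, *Itga7* was at 14.8%, 26.2% and 14.99% in wild type and at 27.9%, 10.8% and 11.1% in knockout. Its difference of −1.17 points did not exceed the spread within the groups (exact two-sided permutation test of 4 samples, p = 1). It was 4.50 points without wild-type library 2, −6.84 without wild-type libraries 1 and 3, 7.31 without knockout libraries 2 and 3 and −9.64 without knockout library 1. *Itga5*, *Itga6* and *Itga7* together took 62.6% to 76.9% of alpha chain FPKM, and *Itga5* was the largest share in each of the 6 libraries, in knockout library 1 by little, at 28.6% against 27.9% for *Itga7*.

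The collagen-binding alpha chains are *Itga1*, *Itga2*, *Itga10* and *Itga11*. *Itga10*, a chain known from cartilage, had the smallest p of the family (unadjusted 0.0267, limma; Benjamini-Hochberg adjusted p = 0.999). It was at 6.30, 9.10 and 6.82 FPKM in wild type, compared with 3.10, 3.19 and 3.36 FPKM in knockout, so all knockout libraries lay together at less than the lowest wild-type value. The mean was 7.83 ± 1.79 FPKM (SD, n = 2) against 3.19 ± 0.124 FPKM (SD, n = 2), and the log2 difference of −1.06 (SE 0.37, 95% interval −1.96 to −0.17) ran from −1.27 to −0.85 over the libraries and samples left out. *Itga10* overlaps *Gm42957* on the same strand. *Itga11*, the collagen receptor chain of fibroblasts, was at 3.49, 3.92 and 4.22 FPKM in wild type, against 2.94, 1.27 and 1.25 FPKM in knockout. It did not overlap, although knockout library 1 came near the wild-type values (−0.71, SE 0.44, −0.31 without knockout libraries 2 and 3 and −1.11 without knockout library 1). *Itga1*, expressed by smooth muscle and endothelium, overlapped, at 5.64 to 8.60 FPKM in wild type, compared with 6.03 to 9.45 FPKM in knockout (0.12, SE 0.39). *Itga2*, the collagen receptor chain of platelets and epithelium, was at no more than 0.138 FPKM in any library and was not tested.

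Of the 4 chains that bind the arginine-glycine-aspartate motif of fibronectin, vitronectin and fibrinogen, 1 was without overlap, beside 21.9% of all genes tested. *Itga5*, the fibronectin receptor chain and the most abundant integrin alpha gene here, was at 58.2, 72.7 and 55.1 FPKM in wild type, against 52.2, 88.4 and 89.1 FPKM in knockout (0.08, SE 0.44). It was at 0.46 without knockout library 1 and −0.29 without knockout libraries 2 and 3. *Itgav*, the partner of beta5, was at 9.05, 5.15 and 8.95 FPKM in wild type, compared with 8.28, 2.77 and 3.32 FPKM in knockout. Like *Itgb5* it was lowest in knockout libraries 2 and 3 and high in wild-type libraries 1 and 3, but unlike *Itgb5* it overlapped between genotypes (−0.36, SE 0.52, and 0.24 without knockout libraries 2 and 3). *Itga8*, a chain of mesenchymal and smooth muscle cells, was at 3.80, 5.80 and 3.45 FPKM in wild type, against 1.47, 4.67 and 4.33 FPKM in knockout. Its low value was confined to knockout library 1 among these 6 libraries, and the log2 difference of −0.61 (SE 0.52) was −0.029 without that library, −0.33 without wild-type library 2 and −1.18 without knockout libraries 2 and 3. *Itga2b*, the platelet fibrinogen receptor chain, was at 2.83, 6.47 and 3.15 FPKM in wild type, compared with 1.89, 2.40 and 2.51 FPKM in knockout, without overlap (−0.79, SE 0.46). Its estimate was −0.34 without wild-type library 2 and −1.24 without wild-type libraries 1 and 3. Platelet markers summed to 129 to 161 FPKM in wild type, against 67.2 to 116 FPKM in knockout, of which *Pf4* was 116 to 145 and 54.6 to 108 FPKM. *Ppbp* and *Clec1b* were highest in wild-type library 2, as was *Itga2b*, at 16.1 FPKM against 1.39 to 4.49 elsewhere and at 4.84 against 0.374 to 1.55. *Gp1bb* was not, at 5.30 FPKM there against 5.37 in wild-type library 1. The part of these markers in the *Itga2b* values was not tested. *Itga9*, a receptor chain for tenascin-C and osteopontin, was nearly level, at 14.3 to 21.5 FPKM in wild type, compared with 14.01 to 20.5 FPKM in knockout (−0.11, SE 0.38).

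The leukocyte chains that pair with beta2 were low apart from *Itgam*, the CD11b chain of monocytes, macrophages and neutrophils. *Itgam* was at 11.6, 3.35 and 12.4 FPKM in wild type, against 2.49, 1.96 and 1.53 FPKM in knockout. The groups did not overlap, but wild-type library 2 was closer to the knockout libraries than to the other wild-type libraries. The log2 difference was −1.28 (SE 0.58, 95% interval −2.68 to 0.12), −0.49 without wild-type libraries 1 and 3 and −2.07 without wild-type library 2. The sum of *Itgb2*, *Itgal*, *Itgam*, *Itgax* and *Itgad* was 29.3, 11.1 and 28.3 FPKM in wild type, compared with 8.80, 6.57 and 6.87 FPKM in knockout, a difference of −1.13 on the log2(sum + 1) scale. The exact two-sided permutation test of this sum gave p = 0.333 for 4 samples and p = 0.1 for 6 libraries, the smallest each allows, with Benjamini-Hochberg values of 1 and 0.35 over the 7 tests. It was −0.48 without wild-type libraries 1 and 3 and −1.78 without wild-type library 2. Macrophage and leukocyte markers were also highest in wild-type libraries 1 and 3 and lowest in knockout libraries 2 and 3, with sums of 1723, 887 and 1766 FPKM in wild type, against 712, 554 and 559 FPKM in knockout, and all 16 had estimates below 0 (median −0.87). Their part in the beta2 integrin values was not tested.

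The members not tested, 10 in all, were *Itga2*, *Itga4*, *Itgad*, *Itgae*, *Itgal*, *Itgax*, *Itgb6*, *Itgb8*, *Lama1* and *Lamc3*. *Itga4*, the chain of the lymphocyte and monocyte receptor for VCAM1, was just below the filter, at 1.37, 0.800 and 1.54 FPKM in wild type, compared with 0.913, 0.354 and 0.329 FPKM in knockout. It overlaps *Cerkl* on the opposite strand. *Itgb6*, an epithelial chain that activates latent TGF-beta, was listed at 0 in wild-type libraries 1 and 3 and at 0.487 to 1.45 FPKM in the other 4 libraries. *Itgb8*, *Itgae* and *Itgad* were at no more than 0.238 FPKM in any library, from about 9 reads or fewer. *Itgal* and *Itgax*, of lymphocytes and dendritic cells, stayed below 1 FPKM throughout.

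For 26 of the 30 tested members, the larger of the 2 differences between samples of 1 genotype exceeded the genotype difference, beside 82.4% of all genes. The larger of 2 differences between single samples is favoured over a difference of means, so this count cannot show which spread is greater. Knockout libraries 2 and 3 lay above the other 4 libraries for 9 members, *Hspg2*, *Itga1*, *Itga5*, *Itga6*, *Itgb1*, *Itgb3*, *Lama4*, *Lamb1* and *Nid2*, or 30% of the members beside 22% of all genes. They lay below the other 4 libraries for 10 members, 33.3% beside 19.3%, among them *Itgb5*, *Itgav*, *Itga7*, *Lama2* and *Itga11*. Wild-type library 2 was above all others for 10 members, 33.3% beside 17.3%, among them *Itga7*, *Lama5*, *Itga2b* and *Itgb7*, and below all others for 7, 23.3% beside 18.8%. Knockout library 1, the deepest, was above all others for 2 members, 6.67% beside 26% of all genes, and below all others for 7, 23.3% beside 22.6%. Wild-type libraries 1 and 3 were above the other 4 for 5 members and below for 4, 16.7% and 13.3% beside 20.2% and 20.1%.

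**Figure D4:**
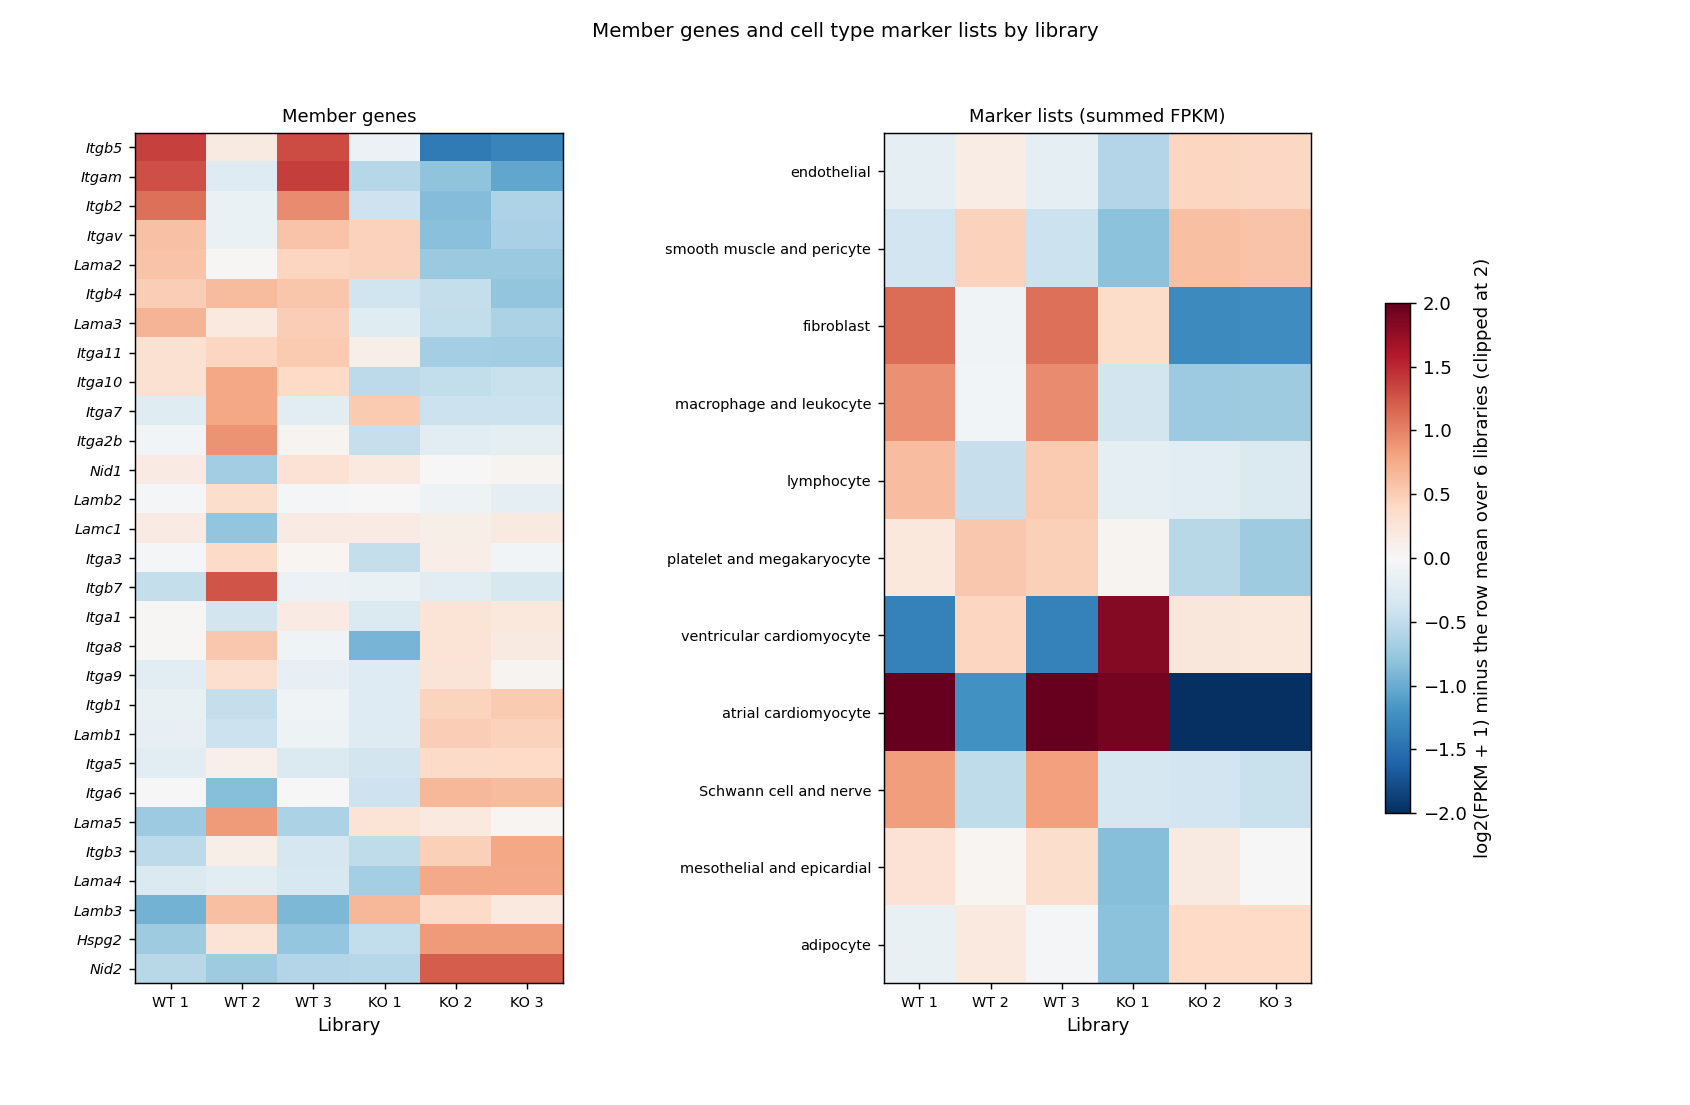
Left, log2(FPKM + 1) of 29 tested members in each library minus the mean of that gene over the 6 libraries, ordered by the difference between knockout libraries 2 and 3 and wild-type libraries 1 and 3. Right, the same for the summed FPKM of 11 cell type marker lists, with red above and blue below the row mean and colours clipped at 2. *Nid2*, *Hspg2* and *Lama4* are red in knockout libraries 2 and 3, as are the endothelial and the smooth muscle and pericyte sums, and *Itgb5*, *Itgam* and *Itgb2* are red in wild-type libraries 1 and 3, as are the fibroblast and the macrophage and leukocyte sums.

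The marker lists were ordered among the libraries as follows, and their part in the members' values was not tested. Endothelial markers summed to 1933, 2450 and 1930 FPKM in wild type, against 1486, 2982 and 2956 FPKM in knockout, and smooth muscle and pericyte markers to 685, 1236 and 666 FPKM in wild type, compared with 509, 1361 and 1329 FPKM in knockout. Both sums were highest in knockout libraries 2 and 3 and lowest in knockout library 1, as was *Lama4*. In neither list did all genes share this order. Of the 12 tested endothelial markers 9 had estimates above 0 and 3 below (median 0.27). The highest estimate was that of *Kdr*, a VEGF receptor gene, at 30.2, 50.5 and 28.4 FPKM in wild type, against 67.7, 111 and 115 FPKM in knockout. The lowest was that of *Egfl7* (−0.75, SE 0.63), at 576, 980 and 580 FPKM in wild type, compared with 289, 701 and 676 FPKM in knockout. In knockout library 1 *Kdr*, *Cdh5* and *Flt1* were above every wild-type library and *Egfl7* was below every one. The smooth muscle and pericyte list was divided, 6 above and 6 below 0 (median 0.02). Within it *Mcam*, which encodes a vascular adhesion molecule, was at 73.1, 68.9 and 68.0 FPKM in wild type, compared with 57.7, 258 and 258 FPKM in knockout. The pericyte channel genes *Kcnj8* and *Abcc9* were instead highest in knockout library 1, at 66.6 FPKM against 20.5 to 25.5 in the other libraries and at 40.0 FPKM against 6.25 to 11.6, and 6 of the 12 genes were lower in knockout libraries 2 and 3 than in knockout library 1. All 12 fibroblast markers had estimates below 0 (median −1.13), among them *Col1a1* at −1.28 and *Dpt* at −1.10, and all 12 ventricular cardiomyocyte markers had estimates above 0 (median 1.10). Of 6 tested atrial markers all were below 0 (median −3.22), as were all 6 tested platelet markers (−0.59) and all 6 tested adipocyte markers (−3.49). *Adipoq*, which defines adipocytes, was at 9.34 to 16.9 FPKM in wild type and at most 0.352 FPKM in knockout. Most of the adipocyte sum was *Fabp4*, at 10563, 13804 and 11397 FPKM in wild type, against 6976.5, 16206 and 16256 FPKM in knockout (−0.21, SE 0.73). Unlike the median, the adipocyte sum was thus highest in knockout libraries 2 and 3. Medians were −0.48 for Schwann cell and nerve markers (7 of 8 below 0), −0.87 for mesothelial and epicardial markers (5 of 6) and −0.53 for lymphocyte markers (2 of 3). No gene of these lists passed the test (limma, Benjamini-Hochberg adjusted p of at least 0.593).

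Other basement membrane genes, 18 of them tested, divided like the members, with 7 estimates above and 11 below 0 (median −0.09), and 0 passed. Those with the smallest p were *Col4a4* (log2 difference −0.93, SE 0.41), *Col4a6* (−1.10, SE 0.55), *Smoc1* (−1.36, SE 0.77) and *Egflam* (0.60, SE 0.48). *Col4a4* and *Col4a6*, minor chains of type IV collagen, were lower in every knockout library, at 2.21 to 3.02 against 0.516 to 1.08 FPKM and at 1.16 to 4.78 against 0.494 to 0.697 FPKM. Of the 18 genes 11.1% were without overlap, beside 21.9% of all genes tested. Of the 16 tested laminin receptors that are not integrins, 11 had estimates above and 5 below 0 (median 0.16). The syndecan genes *Sdc1* (−0.71, SE 0.44), *Sdc2* (−0.76, SE 0.62) and *Sdc4* (−0.40, SE 0.35) had estimates below 0 and *Sdc3* one above it (0.23, SE 0.45), and *Large*, whose enzyme builds the laminin-binding glycan of dystroglycan, was at 0.42 (SE 0.36).

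In a list of integrin adaptor and focal adhesion genes, 33 were tested and 0 passed, with 15 estimates above and 18 below 0 (median −0.03). Of these 33 genes 24.2% were without overlap between genotypes, beside 21.9% of all genes tested. *Itgb1bp2*, which encodes melusin, a muscle protein that binds the beta1 tail, was at 38.3, 150 and 35.1 FPKM in wild type, against 267, 170 and 168 FPKM in knockout. Every knockout library lay above every wild-type library, but wild-type library 2 came close to the lowest knockout value (log2 difference 1.502, SE 0.71). *Vcl*, the vinculin gene, was also higher in every knockout library, at 22.7 to 29.4 FPKM against 33.6 to 60.3 FPKM (0.81, SE 0.42). *Ptk2b*, a focal adhesion kinase relative, was lower in every one, at 5.48 to 9.93 against 2.63 to 3.01 FPKM (−1.11, SE 0.41). So was *Tgfbi* (−0.72, SE 0.41), which was placed in this list although it encodes a secreted matrix protein. Among integrin ligands outside the basement membrane, 14 of 18 tested genes had estimates below 0 (median −0.39) and 0 passed. *Spp1*, osteopontin, a ligand of alphaV and alpha9 integrins, was at 43.6, 8.77 and 45.8 FPKM in wild type, compared with 3.92, 1.03 and 0.915 FPKM in knockout (−2.76, SE 0.79; limma, Benjamini-Hochberg adjusted p = 0.999). *Nov* (−1.32, SE 0.49), *Postn* (−1.10, SE 0.55) and *Tgfb3* (−0.70, SE 0.37) were likewise lower in every knockout library. These genes were named by smallest p, and 22.2% of the 18 ligands were without overlap, beside 21.9% of all genes tested.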

How the data were processed

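Total RNA (Trizol) was made into Illumina TruSeq libraries, per the labels' protocols. FPKM values were deposited, per the file headers. The authors used Cufflinks and build mm10, per the submitters' processing notes. The sources used here do not give the aligner, annotation and strand setting.

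Columns were mapped by the short names in the descriptions. The members and gene lists were chosen with earlier results of these data known. Genes at 1 FPKM or more in at least 3 libraries (12485) were tested on log2(FPKM + 1) with limma 3.58.1 in R 4.3.3 (trend, robust, 2 residual degrees of freedom) and Benjamini-Hochberg adjustment at 0.05. Changes of low genes are understated on this scale. Depth and reads are approximate: of the low values among 2966 genes with 1 annotated transcript over 1000 bases, 75.3% to 81.0% a library were within 0.15 of a whole read. Read numbers of members use the longest coding transcript. The median squared difference, in the depth bin where it was largest, was at most 1.65 times counting variance in the 2 averaged pairs and at least 142 times in the other 13 pairs. Shares used exact permutation tests of means. The script was tested on simulated data.

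Of the 216 list genes 215 were in the table, 5 under an older symbol. Members and label genes could all be named, and list genes by smallest p, up to 4 a list. *Nppa*, *Pmp22*, *Sdc3* and *Fabp4* were named outside this rule, after their values were seen. Positions start at 1, and strand and overlaps come from GENCODE M21. Overlaps on the opposite strand also held for *Nid1* (*Gm48682*), *Lama2* (*Gm48084*), *Lama3* (*Gm29200*), *Lamc3* (*Gm13441*), *Itgav* (*Gm13684*), *Itga8* (*E030013I19Rik*) and *Itgad* (*Cox6a2* among others). On the same strand they held for *Itgam* (*Gm49368*), *Itga1* (*Gm49395*) and *Itgad* (*Gm17831*). The part of overlapping genes in the values was not tested. The alternatives were 6 separate libraries, without and with a term for the record set (2 runs of record numbers) or a replicate block, each library or sample left out, a pseudocount of 0.1, other filters and median-of-ratios scaling. In all, 1 member that was tested and counted is not reported here by name or value.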

Additional observations from a re-analysis of the deposited data

How the results depend on the processing

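No member was called under any of the 15 alternatives run, and the counts of members called, 0 higher and 0 lower, were the same throughout. The median of the members ran from −0.27 to 0.00 over the samples and libraries left out. Of the 30 tested members, 17 had estimates of 1 sign in every alternative, 6 above and 11 below 0. *Itga9* went from −0.11 to 0.043 with 6 separate libraries, with the record set term and with the replicate block, and the cause was not tested. With 1 library left out, and in brackets without wild-type libraries 1 and 3 and without knockout libraries 2 and 3, estimates ran from 0.40 to 1.09 (−0.088 and −0.25) for *Hspg2*, −0.12 to 0.39 (0.35 and −0.15) for *Itga1*, 0.065 to 0.46 (−0.093 and −0.29) for *Itga5*, −0.71 to 0.27 (−0.73 and 0.25) for *Itga7*, −0.17 to 0.15 (−0.38 and −0.32) for *Itga9*, −0.96 to −0.31 (−0.0071 and 0.24) for *Itgav*, 0.14 to 0.79 (−0.051 and −0.35) for *Itgb3*, −0.77 to 0.090 (−1.46 and −0.62) for *Itgb7*, −1.01 to −0.37 (−0.17 and 0.19) for *Lama2*, 0.30 to 1.02 (0.26 and −0.41) for *Lama4*, 0.031 to 0.88 (−0.66 and 0.19) for *Lama5*, 0.45 to 1.39 (−0.12 and 0.82) for *Lamb3* and −0.12 to 0.37 (0.80 and 0.43) for *Nid1*. In the same form, differences in share in points ran from −8.67 to −2.81 (1.45 and 2.33) for *Lama2*, −0.60 to 22.3 (14.4 and −8.50) for *Lama4*, −11.1 to 11.7 (−15.0 and 7.73) for *Lama5* and −9.64 to 4.50 (−6.84 and 7.31) for *Itga7*. Deviations of libraries with the same replicate number in the descriptions correlated across genes at 0.116, 0.125 and −0.098, and wild-type library 3 correlated best with knockout library 1. The titles hold other numbers. Wild-type library 1 shares its title number with knockout library 1, and wild-type library 3 shares its own with knockout library 2 (−0.112). Whether these numbers pair the samples could not be decided, because the close libraries leave 1 contrast in each genotype. With the number in the descriptions as a replicate block 1 of the 12485 genes was called, as without it in the 4 samples. The *Ltbp4* estimate was then −0.87 and 15 members had estimates below 0. With a wild-type or knockout group of 1 sample, that sample is assumed to vary like the others. At 3600000 to 14100000 fragments a library, members with a few reads cannot be ordered.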
